A study of Glycine max with 12 samples.

Results

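The genes described here are 6 heat shock factor (HSF) genes of soybean (Glycine max) that belong to classes B and C. They were chosen by identifier and gene name, with no threshold on their measured values, but with earlier results of these data known. They were the class B genes HSFB2A (GLYMA_10G237800), a second HSFB2A (GLYMA_16G196200), HSFB2B (GLYMA_11G025700), HSFB4 (GLYMA_17G241300) and HSF4 (GLYMA_05G095800), and the class C gene HSFC1 (GLYMA_09G190600). Their identifiers place them on chromosomes 10, 16, 11, 17, 5 and 9. The count table held 55897 genes, of which 38410 passed a filter on low counts and were tested. Of the 6 genes, 5 passed, and HSFB4 did not.

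Flowers of cultivar Magellan were sequenced from 4 groups of plants, with 3 libraries each. Control plants (CT) were well watered at a day temperature of 28 °C, and water deficit plants (WD) received 30% of the water available for transpiration at that temperature. Heat stress plants (HS) were well watered at 38 °C, and WD+HS plants had the reduced water supply at 38 °C. All plants were inoculated with Bradyrhizobium japonicum, and the treatments started at the first open flower and lasted 10 d. Each library was made from 30 to 40 closed flowers (labelled buds, Stage II and III) pooled over 8 to 10 plants. The values are therefore averages over whole flowers, in which fewer cells of a type and less RNA per cell cannot be told apart. The treatments were applied in separate growth chambers, so chamber and treatment cannot be told apart.

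HSFs bind heat shock elements in promoters. Class A members carry an activation domain and switch on chaperone genes, with HSFA2 as the member that prolongs the heat response in Arabidopsis thaliana. Class B members lack the activation motif of class A, and most of them carry a repressor motif. In Arabidopsis, HSFB1 (which has the older name HSF4) and HSFB2B repress HSFA2 and other heat-inducible genes, and restrain them again after stress. Class C members lack both motifs, and less is known of what they do.

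Total counts per library lay between 14049107 and 22415845. Over all genes tested, libraries of a treatment correlated with each other at r = 0.975 to 0.988, and libraries of different treatments at 0.945 to 0.981, on the log2 scale. As a check of the tissue, 4 flower genes were read, of which the floral regulators AGAMOUS-like 6 (GLYMA_16G200700), AGAMOUS-like 8 (GLYMA_19G034600) and LEAFY (GLYMA_06G163600) were detected in all 12 libraries, and TAPETUM 1 (GLYMA_18G278500) had 0 to 49 reads. Levels are given as CPM, the counts scaled to a common library size by TMM. AGAMOUS-like 6 fell from a mean of 9.88 CPM in CT to 2.91 in HS, and was at 8.37 in WD+HS. AGAMOUS-like 8 fell from 2.45 CPM in CT to 0.644 in HS, and was at 0.864 in WD+HS. LEAFY stood at 2.71 CPM in CT, 2.53 in WD, 5.01 in HS and 4.27 in WD+HS. These 4 flower genes were listed by the study as changed in these samples. They check only whether floral genes are detected, and their changes are not independent evidence. The part that a shift in flower stage or makeup had in the results below was not tested.

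The class B and C genes that were called did not share a direction. Under HS, 1 of the 5 genes tested rose (HSFB2A, GLYMA_10G237800), beside 15.9% of all genes called higher. Under WD+HS that gene fell below CT, beside 19.1% of all genes called lower. Between the heated treatments, the first HSFB2A and HSFB2B were lower in WD+HS than in HS, while HSFC1 was higher, beside 5.94% of all genes called lower and 3.21% called higher. Calls were made at an adjusted p below 0.05 in the quasi-likelihood test of edgeR, with p-values adjusted by the Benjamini-Hochberg method across every gene tested.

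**Figure D1:**
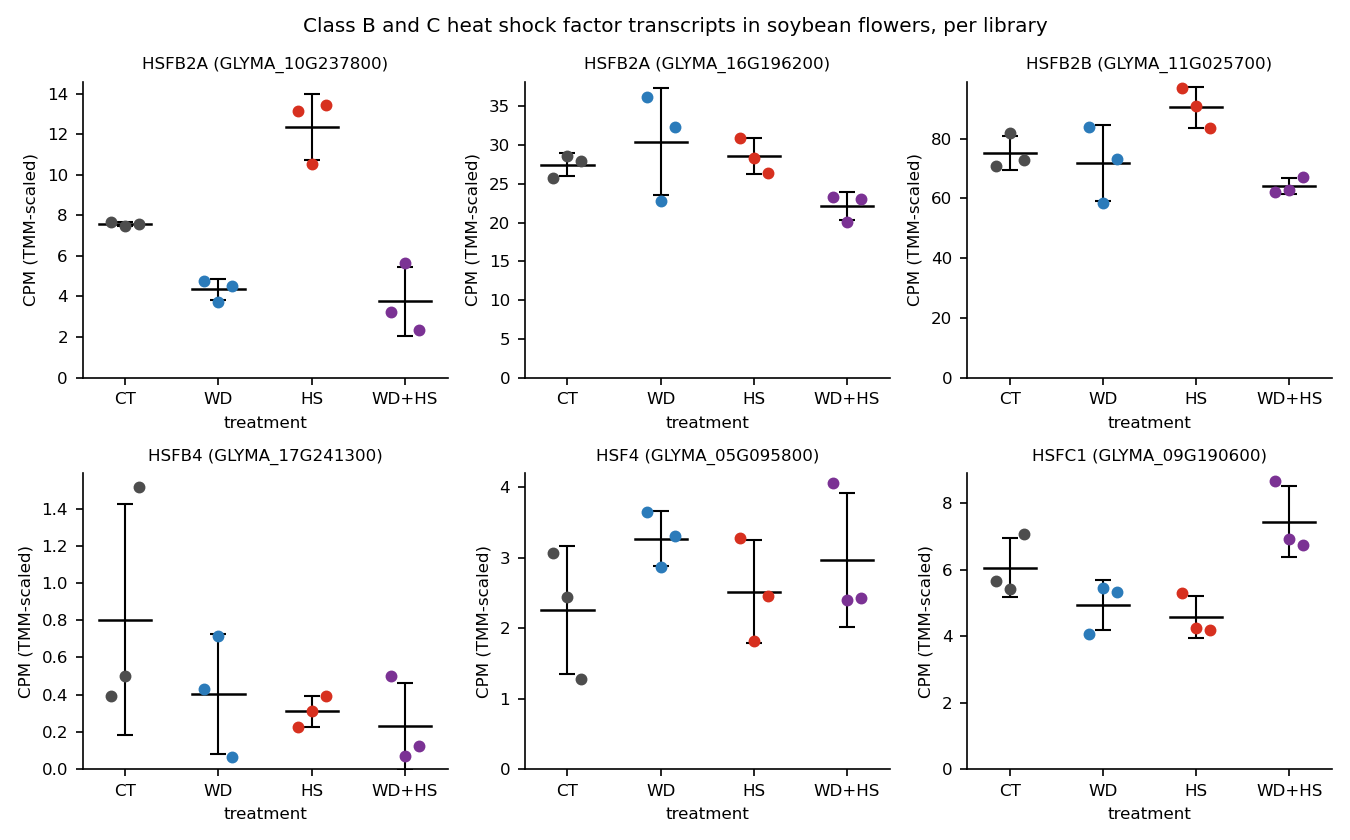
TMM-normalised CPM of each of the 6 genes (one panel each, vertical axes from 0) in the 12 libraries, by treatment, where circles are libraries, bars are means and lines are the SD of 3 libraries. HSFB2A (GLYMA_10G237800) was highest in the 3 HS libraries, at 10.5 to 13.5 CPM, and the HSFB4 panel stays under 2 CPM.

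HSFB2A (GLYMA_10G237800) had the largest called changes of the 5 genes tested, up under HS and down under WD+HS. In Arabidopsis, HSFB2A is known for a role in gametophyte development. It was measured at 7.69, 7.47 and 7.57 CPM in the CT libraries, and at 4.78, 3.74 and 4.51 CPM in WD. It reached 13.2, 10.5 and 13.5 CPM in HS, and was at 3.25, 5.65 and 2.37 CPM in WD+HS. Every HS library was above every CT library, every WD and every WD+HS library was below CT, and WD and WD+HS overlapped. The gene rose 1.63-fold under HS (0.71 on the log2 scale, standard error, SE, 0.22, adjusted p = 0.0154 in edgeR). Under WD+HS it fell by 1.03 on the log2 scale against CT (SE 0.24, adjusted p = 0.00178 in edgeR). Against HS it fell by 1.73 on that scale (SE 0.23, adjusted p = 3.76e-05 in edgeR), to 0.301 times the HS level. Both of the latter calls held in all 22 alternative fits. The difference between WD+HS and WD was -0.22 (95% interval -0.73 to 0.30, adjusted p = 0.546 in edgeR). Under WD alone the log2 fold change was -0.81 (SE 0.23), which missed the threshold at an adjusted p of 0.0870 in edgeR.

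The HS call of this gene did not hold without CT replicate 2 (adjusted p = 0.0522), without HS replicate 1 (0.0554) and without HS replicate 3 (0.0678, all edgeR). Its lower level under WD was called by DESeq2 (adjusted p = 0.0386), and in edgeR with no filter on low counts (0.0407), without WD+HS replicate 2 (0.0370) and without WD+HS replicate 3 (0.0497).

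The second HSFB2A (GLYMA_16G196200) had higher counts and varied less between treatments. It was at 25.8, 28.7 and 28.0 CPM in CT, 36.2, 22.8 and 32.3 CPM in WD, 31.0, 28.3 and 26.4 CPM in HS, and 23.3, 20.1 and 23.0 CPM in WD+HS. All WD+HS libraries were below all CT and all HS libraries, whereas WD spanned the CT and HS values and WD replicate 2 lay within the WD+HS range. Against WD, the gene fell by 0.45 on the log2 scale in WD+HS (SE 0.13, adjusted p = 0.0128 in edgeR). The differences of WD+HS from CT, -0.31 (SE 0.13, adjusted p = 0.0700), and from HS, -0.37 (SE 0.13, adjusted p = 0.0936), did not pass in edgeR. The log2 fold change under HS was 0.05, with a 95% interval of -0.21 to 0.32.

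The WD libraries were the most spread of the second HSFB2A, and its calls moved with them. The call against WD was lost without WD replicate 1 (adjusted p = 0.0937), WD replicate 3 (0.0532) or WD+HS replicate 2 (0.0701). Without WD replicate 1 or WD replicate 2, the gene was called lower in WD+HS than in CT (adjusted p = 0.0381 and 0.0218) and than in HS (0.0453 and 0.0261, all edgeR).

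The genes of the name HSFB2A thus had different profiles, described by the ratio of their read counts, GLYMA_10G237800 over GLYMA_16G196200, within each library. This ratio was 0.298, 0.261 and 0.271 in CT, 0.425, 0.371 and 0.509 in HS, 0.132, 0.164 and 0.140 in WD, and 0.139, 0.281 and 0.103 in WD+HS. The HS libraries were highest and the WD libraries were below those of CT, while WD+HS replicate 2 lay within the CT range. As a ratio of counts it is not corrected for gene length, and the difference between these genes was not tested.

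**Figure D2:**
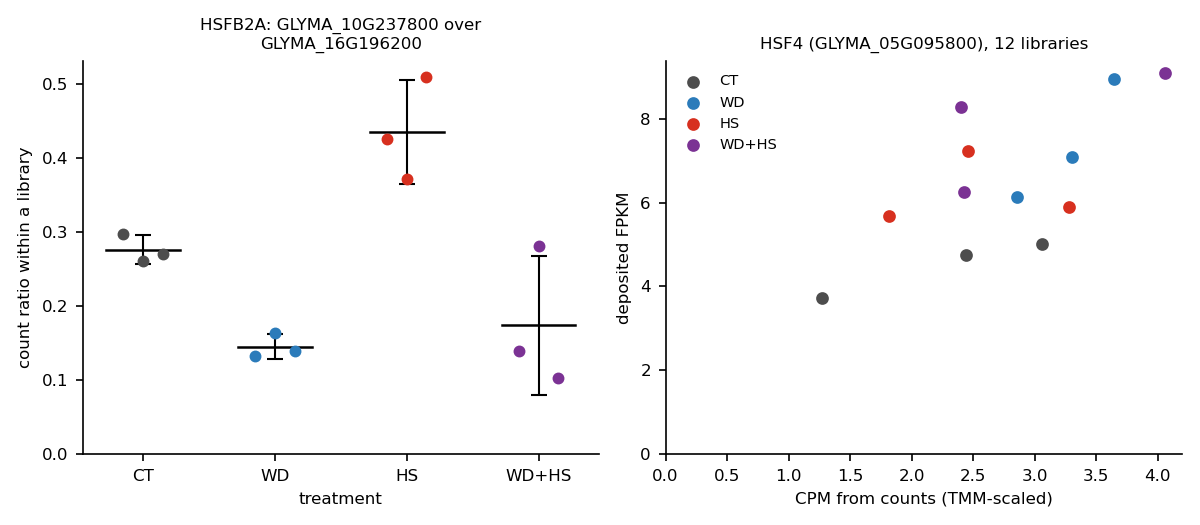
Left, the ratio of counts of the HSFB2A genes (GLYMA_10G237800 over GLYMA_16G196200) in each library, by treatment. Right, the FPKM (a level scaled to library size and gene length) of HSF4 (GLYMA_05G095800) against its CPM in the same libraries, in which 1 CPM corresponds to 1.64 to 3.45 FPKM, and the low CT replicate 3 stands at 1.27 CPM and 3.71 FPKM.

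HSFB2B (GLYMA_11G025700), a repressor of heat-inducible genes in Arabidopsis, had the highest level of the 6 genes. It was measured at 70.9, 81.7 and 72.8 CPM in CT, 83.8, 58.4 and 73.2 CPM in WD, 96.9, 90.9 and 83.4 CPM in HS, and 62.2, 62.9 and 67.1 CPM in WD+HS. Every HS library was above every CT library and every WD+HS library below, while WD overlapped all 3 other treatments. WD+HS fell by 0.50 on the log2 scale against HS (SE 0.10, adjusted p = 0.00308 in edgeR), to 0.709 times the HS level, and this call was lost only where a change of at least 1 on the log2 scale was required. The rise under HS, 0.27 (SE 0.10), just missed the threshold, at an adjusted p of 0.0553 in edgeR. It was called in 9 of the 22 alternatives, among them limma on log2(FPKM + 1), with an adjusted p of 0.0203. The log2 fold change under WD was -0.07, with a 95% interval of -0.29 to 0.15.

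Single libraries also decided calls of HSFB2B in edgeR. Without CT replicate 2, WD replicate 1 or WD replicate 2 it was called higher under HS (adjusted p = 0.0488, 0.0233 and 0.0212). Without WD replicate 1 or WD replicate 2 it was called lower in WD+HS than in CT (0.0470 and 0.0426, against 0.0914 with all libraries). Without WD replicate 2 it was called lower in WD+HS than in WD (0.0292, against 0.267).

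HSF4 (GLYMA_05G095800) carries the older Arabidopsis name of HSFB1, the repressor that acts together with HSFB2B there. Its counts were low, 21 to 65 reads in a library. It was at 3.06, 2.44 and 1.27 CPM in CT, 3.64, 2.86 and 3.30 CPM in WD, 3.28, 1.81 and 2.46 CPM in HS, and 4.06, 2.40 and 2.43 CPM in WD+HS. All treatments overlapped, and no comparison passed in edgeR. The 95% interval of the log2 fold change against CT ran from -0.57 to 0.87 for HS and from -0.33 to 1.11 for WD+HS.

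The deposited FPKM of HSF4 gave another picture of the same libraries. The values were 5.01, 4.74 and 3.71 FPKM in CT, 8.96, 6.13 and 7.08 in WD, 5.89, 5.69 and 7.23 in HS, and 9.10, 8.28 and 6.26 in WD+HS. On this scale the CT libraries were lower than all of the other 9. On the log2(FPKM + 1) scale, limma gave a difference of 0.69 between WD+HS and CT (SE 0.16, adjusted p = 0.00512), 0.61 between WD and CT (adjusted p = 0.113) and 0.41 between HS and CT (adjusted p = 0.0662). The FPKM per CPM of HSF4 lay between 1.64 and 3.45 over the 12 libraries, against 0.395 to 0.518 for HSFB2B, which varied least. It also varied for HSFB2A (0.580 to 0.970 for GLYMA_10G237800, 0.624 to 0.841 for GLYMA_16G196200) and HSFC1 (0.629 to 1.00). For HSFB4, which had few reads, it ran from 0.279 to 2.63. The FPKM of HSF4 therefore does not follow its counts by a constant gene length. Its change under WD+HS was called from the FPKM in limma, but not from the counts in edgeR. The deposited table and the test differed together there, so their parts cannot be told apart.

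HSFB4 (GLYMA_17G241300) is known in Arabidopsis as SCHIZORIZA, a regulator of asymmetric cell division in the root. In these flowers it was close to the limit of detection. It had 6, 11 and 25 reads in the CT libraries, 6, 13 and 1 in WD, 4, 6 and 8 in HS, and 8, 1 and 2 in WD+HS. Each treatment overlapped with each other one, and CT replicate 3 was the highest library. The gene was left out of the test by the filter on low counts. In a fit without that filter its log2 fold change against CT was -1.34 in HS (95% interval -3.12 to 0.44, adjusted p = 0.294 in edgeR) and -1.76 in WD+HS (95% interval -3.62 to 0.11, adjusted p = 0.160 in edgeR).

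HSFC1 (GLYMA_09G190600), the class C gene, was higher in WD+HS than in HS, where the first HSFB2A (GLYMA_10G237800) and HSFB2B were lower. It was measured at 5.67, 5.43 and 7.09 CPM in CT, 4.07, 5.45 and 5.32 CPM in WD, 5.31, 4.25 and 4.18 CPM in HS, and 8.68, 6.92 and 6.74 CPM in WD+HS. Every WD+HS library was above every HS and every WD library, but the WD+HS libraries overlapped with CT replicate 3, and each HS library was below each CT library. The gene was 1.63-fold higher in WD+HS than in HS (0.70 on the log2 scale, SE 0.20, adjusted p = 0.0314 in edgeR). Against WD it was higher by 0.59 on the log2 scale (SE 0.21, adjusted p = 0.0353 in edgeR). Against CT, neither HS, -0.40 (SE 0.20, adjusted p = 0.141), nor WD+HS, 0.30 (SE 0.20, adjusted p = 0.261), passed in edgeR.

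Both calls of HSFC1 were near the threshold. The difference from HS was lost in edgeR without HS replicate 2 (adjusted p = 0.114), HS replicate 3 (0.132), WD+HS replicate 1 (0.159) or WD+HS replicate 2 (0.0546). The difference from WD was lost without WD replicate 1 (0.118), WD replicate 3 (0.0540) or WD+HS replicate 1 (0.151), in limma on log2(FPKM + 1) (0.180), and with only the WD and WD+HS libraries in the fit (0.0517).

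**Figure D3:**
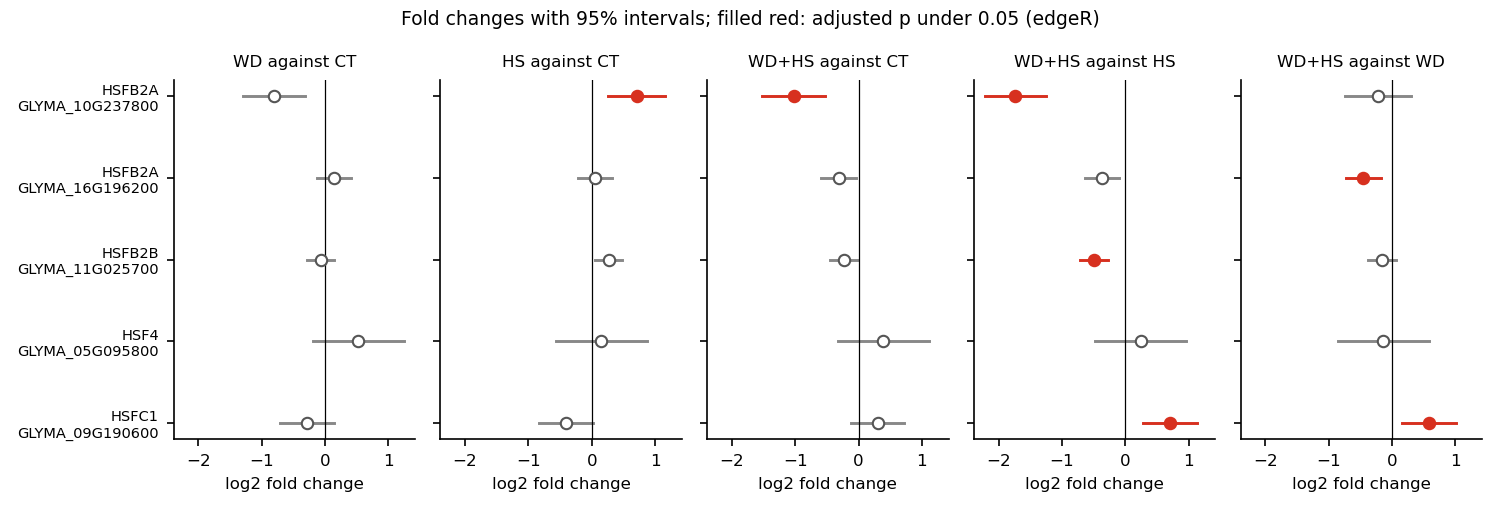
Log2 fold change of the 5 genes tested in each of the comparisons, from edgeR, with points for the estimates, bars for the 95% intervals, and filled symbols for an adjusted p below 0.05. HSFB2A (GLYMA_10G237800) lies at 0.71 for HS and -1.03 for WD+HS, both against CT, and HSFC1 lies above 0 where WD+HS is compared with HS and with WD.

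Read as counts, the 5 genes tested stood as follows beside all genes. Under WD none of the 5 was called in edgeR, where 0.937% of all genes tested were called higher and 0.682% lower. At an unadjusted p below 0.05 in edgeR, 1 of the 5 was lower, but the share of all genes at that threshold was not counted. DESeq2 called 1 (HSFB2A, GLYMA_10G237800), and limma on FPKM called 0. Under HS 1 of 5 was higher and 0 lower, beside 15.9% and 16.0% of all genes. Under WD+HS 0 were higher and 1 lower, beside 17.7% and 19.1%. In WD+HS against HS 1 was higher and 2 were lower, beside 3.21% and 5.94%. In WD+HS against WD 1 was higher and 1 lower, beside 13.7% and 16.4%. With 5 genes, 1 call more or less moves the share of the class B and C genes by more than any of these percentages, so nothing is read from the shares.

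The WD and HS effects were also tested for their interaction, which is the difference between the WD effect in heated and in unheated plants. None of the 5 genes was called in edgeR, where 0.497% of all genes had a higher and 2.45% a lower interaction value. At an unadjusted p below 0.05 in edgeR, 1 of the 5 was higher and 3 were lower. The share of all genes at that unadjusted threshold was not counted, so nothing is read from these counts. DESeq2 called HSFC1, and limma on FPKM called 0. The 3 HSFB2 genes had negative values, -0.93 (SE 0.33) for GLYMA_10G237800, -0.51 (SE 0.18) for GLYMA_16G196200 and -0.43 (SE 0.15) for HSFB2B, with adjusted p of 0.166, 0.185 and 0.152 in edgeR. HSFC1 had 0.99 (SE 0.29, adjusted p = 0.0734 in edgeR, 0.0414 in DESeq2). Without WD+HS replicate 2 the value of GLYMA_10G237800 was called (adjusted p = 0.0172), and without WD replicate 2 those of GLYMA_16G196200 (0.0142) and HSFB2B (0.0182) were called, in edgeR. In edgeR with all libraries, the effect of WD in heated plants was thus not shown to differ from that in unheated plants for any of the 5 genes, while DESeq2 called such a difference for HSFC1.

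Levels can be compared between genes only per length, on the FPKM scale. HSFB2B was highest in every treatment, with 34.0 ± 3.22 FPKM in CT, 33.1 ± 5.47 in WD, 44.7 ± 4.01 in HS and 30.2 ± 0.969 in WD+HS (mean ± SD, n = 3). The second HSFB2A (GLYMA_16G196200) followed in every treatment, with 20.7 ± 2.42 FPKM in CT, 22.2 ± 4.35 in WD and 15.7 ± 1.30 in WD+HS, and the HS mean between those of CT and WD. The order of the next 3 changed with treatment. In CT the first HSFB2A (GLYMA_10G237800) at 4.99 ± 0.751 FPKM, HSFC1 at 4.69 ± 0.769 and HSF4 at 4.49 ± 0.684 did not differ beyond their spread. In HS the first HSFB2A led them at 9.64 ± 0.923 FPKM, with HSF4 at 6.27 ± 0.839 and HSFC1 at 3.72 ± 0.588. In WD+HS the first HSFB2A was the lowest of them at 3.23 ± 1.27 FPKM, below HSFC1 at 5.35 ± 0.199 and HSF4 at 7.88 ± 1.46. The means had the same order in WD, at 3.69 ± 0.768 FPKM for the first HSFB2A, 4.42 ± 0.368 for HSFC1 and 7.39 ± 1.44 for HSF4. In WD the libraries of the first HSFB2A and HSFC1 overlapped. Since the FPKM of HSF4 did not follow its counts, the place of HSF4 among these 3 is uncertain. The FPKM per CPM also varied for the first HSFB2A (0.580 to 0.970) and HSFC1 (0.629 to 1.00), which limits their order as well. HSFB4 was last everywhere, with means of 0.255 to 0.503 FPKM.

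**Figure D4:**
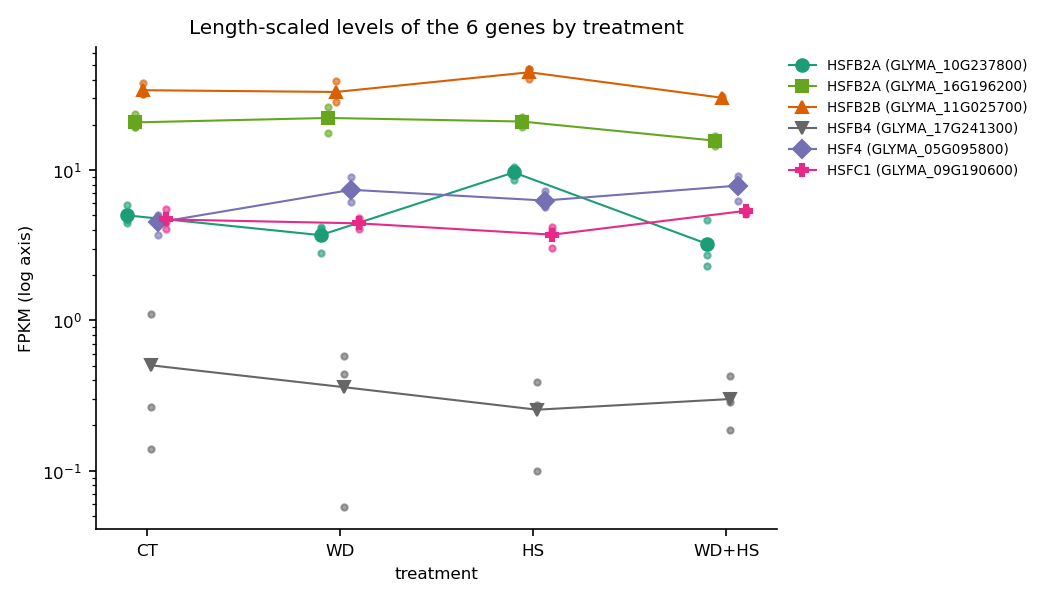
Deposited FPKM of the 6 genes on a log axis by treatment, with large symbols joined by lines for the means and small points for the 3 libraries of each treatment. HSFB2B and HSFB2A (GLYMA_16G196200) hold the upper places in each treatment, while HSFB2A (GLYMA_10G237800) moves from 9.64 FPKM in HS to 3.23 in WD+HS.

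Summed over the 6 genes, the level was 65.2 to 77.4 FPKM in the CT libraries, 59.8 to 82.8 in WD, 80.9 or more in HS and 57.6 to 65.6 in WD+HS. HSFB2B made up the largest share of it. The sum of the 4 HSFA2 genes, which encode heat-induced activators, was 26.3 to 43.0 FPKM in CT, 18.3 to 35.5 in WD, 118 to 138 in HS and 58.0 to 62.2 in WD+HS. The sum of the 6 genes holds neither the further class B genes given next nor any other members of these classes, so it is not the total of class B and C and is not ranked against the HSFA2 sum.

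Other HSF and chaperone genes were taken from the supplementary lists of changed transcripts of the study. Those lists were chosen by the study on these samples, so neither the directions nor the sizes of their changes are independent evidence. They do not hold all HSF genes. They gave 4 further class B genes, all of which bear a name found among the 6. HSFB2A (GLYMA_20G156800) rose from 8.15 ± 0.350 CPM in CT to 16.2 ± 3.35 in HS (SD, n = 3), and was at 8.40 ± 0.703 in WD+HS. Its log2 fold change was 0.99 under HS (SE 0.16, adjusted p = 7.70e-05) and -0.94 in WD+HS against HS (SE 0.16, adjusted p = 0.000461, both edgeR). Under WD+HS against CT it stood at 0.04 (adjusted p = 0.870 in edgeR), where GLYMA_10G237800 fell.

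The further HSF4 genes rose under HS. For GLYMA_05G095800 no change under HS was called, with a 95% interval of -0.57 to 0.87 in edgeR, and its difference from these genes was not tested. GLYMA_01G185800 was at 10.1 ± 0.731 CPM in CT and 20.4 ± 3.35 in HS, a log2 fold change of 1.02 (adjusted p = 0.000164 in edgeR). GLYMA_11G056200 was at 7.93 ± 1.85 CPM in CT and 13.4 ± 2.15 in HS, a log2 fold change of 0.76 (adjusted p = 0.00611 in edgeR). The further HSFB4 (GLYMA_14G083700) had 10 to 20 reads in the CT libraries and 0 to 6 in HS. It fell by 2.53 on the log2 scale under HS (SE 0.89, adjusted p = 0.0334 in edgeR). That call was lost without CT replicate 1 (adjusted p = 0.140), CT replicate 3 (0.0618), HS replicate 1 (0.124) or HS replicate 3 (0.113).

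Of 10 class A HSF genes in the lists, 8 rose and 0 fell under HS, with a median log2 fold change of 1.36. They too were listed by the study as changed in these samples. Their counts and medians are therefore not ranked against those of the class B and C genes. Of the 5 class B and C genes tested, 1 rose, with a median of 0.15. Of all genes tested, 15.9% were called higher, with a median of 0.01, so that the count of 1 in 5 is near the background. In WD+HS against HS, 4 of the 10 class A genes fell, beside 5.94% of all genes called lower. The median was -0.32 for class A and -0.37 for the class B and C genes, beside 0.01 for all genes. Of the HSFA2 genes, GLYMA_17G227600 went from 1.33 CPM in CT to 85.7 in HS and 41.4 in WD+HS, and GLYMA_14G096800 from 12.1 to 70.5 and 40.1. The mean of GLYMA_17G053700 went the other way between the heated treatments, from 3.49 CPM in CT to 6.77 in HS and 8.16 in WD+HS. No class A gene was called higher in WD+HS than in HS in edgeR, beside 3.21% of all genes. HSFA2 (GLYMA_04G052000) was at 47.6 CPM in CT, 35.0 in WD, 54.9 in HS and 17.2 in WD+HS, its lowest mean. The first HSFB2A also had its lowest mean in WD+HS, but its WD and WD+HS libraries overlapped.

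Heat shock proteins, the chaperones that HSFs control, had large median changes, but were listed by the study as changed in these samples. Their medians are therefore not ranked against those of the class B and C genes described here. Of 19 in the lists, 17 rose and 1 fell under HS, with a median log2 fold change of 2.15, beside 15.9% and 16.0% of all genes. In WD+HS against HS 17 fell, with a median of -1.41, beside 5.94% of all genes. HSP101, which takes protein aggregates apart, was at 50.9 CPM in CT, 32.5 in WD, 184 in HS and 61.4 in WD+HS for GLYMA_05G022200. For GLYMA_06G202200 it was at 112, 63.2, 115 and 39.7 CPM.

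**Figure D5:**
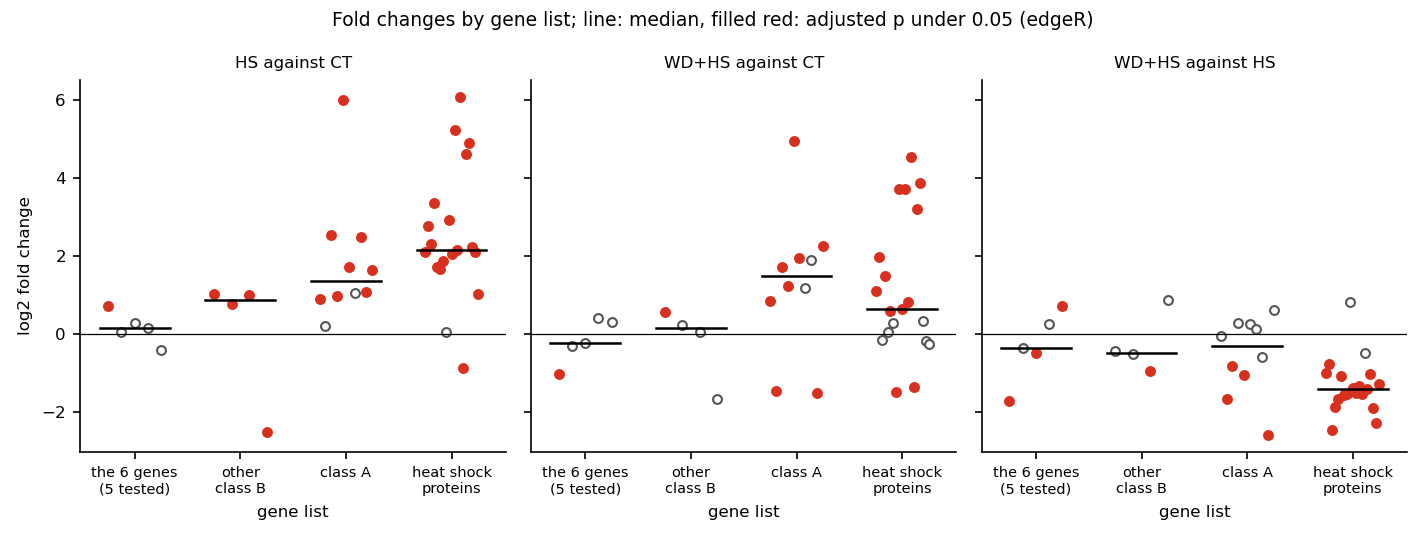
Log2 fold changes of every gene tested in 4 lists (class B and C genes described here, other class B HSF, class A HSF and heat shock proteins), one point a gene, in 3 comparisons, with a bar at the median of each list and filled symbols for an adjusted p below 0.05. Under HS the medians are 0.15 for the 5 class B and C genes, 1.36 for class A and 2.15 for the heat shock proteins. The other class B, class A and heat shock protein genes were listed by the study as changed in these samples.

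The genes with the most similar profile to each of the 5 were sought by the smallest root mean square difference over the 12 libraries in log2(CPM + 0.5), taken relative to the CT mean, with genes of a mean below 5 CPM left out. For HSFB2A (GLYMA_10G237800) they were phloem protein 2-B10 (GLYMA_10G169300), at a difference of 0.31, and an RmlC-like cupin gene (GLYMA_13G328400), at 0.33. The former was at 8.81 CPM in CT, 5.62 in WD, 13.8 in HS and 4.77 in WD+HS. The other genes had closer neighbours, for which the sources used here gave no name. They were GLYMA_16G042000 (0.10) for HSFB2A (GLYMA_16G196200), GLYMA_15G061500 (0.07) for HSFB2B, GLYMA_20G123100 (0.23) for HSF4 and GLYMA_09G264300 (0.16) for HSFC1. Among the 6 genes themselves, GLYMA_16G196200 and HSFB2B were the most alike, at 0.16, and GLYMA_10G237800 and HSF4 the least alike of those tested, at 1.02. A gene that varies little between libraries has more such neighbours, so these values describe likeness only.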

How the data were processed

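RNA of soybean flowers was sequenced as paired reads in 12 libraries (4 treatments, 3 libraries each), grouped by the treatment in the sample labels. The authors trimmed the reads and aligned them with HISAT2 2.2.1 to the soybean genome. They deposited a table of raw read counts per gene and library (55897 genes) and a table of FPKM, fragments scaled to library size and transcript length, per library (57147 features). According to the paper, FPKM came from Cufflinks, with the genome annotation as a guide. The program behind the raw counts, its use of strand and its treatment of reads with several matches are not given in the sources used. Reads of near-identical copies may thus be split between the HSF genes of 1 name.

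The tests of the counts ran in edgeR 4.0.16 (R 4.3.3). Genes were kept by filterByExpr at a minimum count of 10, and libraries were scaled by TMM factors. A quasi-likelihood model of the 4 treatments was fitted to all 12 libraries, and p-values were adjusted by Benjamini-Hochberg over 38410 genes. Calls were made at an adjusted p of 0.05. CPM are TMM-normalised, SE is the log2 fold change divided by the root of the F statistic, and intervals are at 95%. Libraries held 14049107 to 22415845 counts. The steps were tested on simulated data.

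Alternatives, 22 for each comparison and 21 for the interaction, were DESeq2 1.42.0, upper-quartile or total-count scaling, no filter beyond 1 count, at least 10 counts in every library, limma 3.58.1 on log2(FPKM + 1) or log2(FPKM + 0.1) with FPKM of at least 1 in 3 libraries, a replicate block, a fit on the compared libraries alone, the omission of each library in turn, and a minimum log2 fold change of 1. The same alternatives for the other HSF and chaperone lists were added after seeing the data.

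All 6 genes are described. Other genes were named by rule: class B genes that share a name with them, HSFA2, HSP101, and the genes most similar in profile (at most 2 for each). The 6 genes and the lists were chosen with earlier results of these data known. Libraries are separate pools of flowers. Sequences of the genes were not analysed here, since 0 of their identifiers matched the RefSeq gene table used.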

Additional observations from a re-analysis of the deposited data

How the results depend on the processing

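Both calls of HSFB2A (GLYMA_10G237800) in WD+HS, against CT and against HS, held in all 22 alternatives. The number of the 5 class B and C genes called under WD (0) was 1 with DESeq2 and with no filter, and 0 to 1 with a library left out. Under HS (1) it was 2 with library size only, no filter, at least 10 counts in every library, limma on either FPKM scale and only the libraries compared, 0 with a minimum log2 fold change of 1, and 0 to 2 with a library left out. Under WD+HS (1) it was 2 with no filter, 3 with limma on either FPKM scale and with only the libraries compared, and 1 to 3 with a library left out. In WD+HS against HS (3) it was 4 with no filter and with only the libraries compared, where GLYMA_16G196200 was also called (adjusted p = 0.0454 and 0.0192 in edgeR), 1 at the minimum log2 fold change of 1 and 2 to 4 with a library left out. In WD+HS against WD (2) it was 1 with limma on either scale and with only the libraries compared, 0 at the minimum fold change, and 0 to 3 with a library left out. For the interaction (0) it was 1 with DESeq2 and 0 to 2 with a library left out. Over all genes, 622 were called under WD, against 1014 with DESeq2, 1016 with no filter, 229 and 235 with limma on log2(FPKM + 1) and log2(FPKM + 0.1), 224 with only the libraries compared, 137 at the minimum fold change and 266 to 1240 with a library left out. That minimum left 2713 of 12230 genes under HS, 4001 of 14135 under WD+HS, 1402 of 3515 in WD+HS against HS and 3236 of 11592 in WD+HS against WD. The interaction had 1132 genes, against 605 and 701 with limma, and 761 to 1581 with a library left out. The cause of these shifts was not tested, except that the minimum fold change removes small changes by its construction.

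Changes of sign occurred only for differences that were not called. With a library left out, the log2 fold change ran from -0.014 to 0.32 for HSFB2A (GLYMA_16G196200) under WD, from -0.20 to 0.063 for HSFB2B under WD, from -0.0060 to 0.11 for GLYMA_16G196200 under HS, from -0.13 to 0.41 for HSF4 under HS, from -0.049 to 0.47 for HSF4 in WD+HS against HS, and from -0.62 to 0.036 for GLYMA_10G237800 in WD+HS against WD. For GLYMA_20G156800 under WD+HS it ran from -0.016, without WD+HS replicate 2, to 0.10. HSF4 in WD+HS against WD (-0.13) was 0.082 and 0.091 with limma on the FPKM scales.

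Libraries of different treatments share replicate numbers, but the 18 pairs with the same number had correlations of deviations of -0.15 to 0.11, of which 1 was over 0.1, so the numbers were not taken to pair the samples. With the replicate block, the counts of the class B and C genes called were 0, 1, 1, 3, 2 and 0 in the order above, as without it, and those of all genes were 578, 12008, 13900, 3377, 11273 and 1036. Depth limits HSFB4, with 1 to 25 reads a library, and HSF4, with 21 to 65.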
